A study of Canis lupus familiaris with 17 samples.

Results

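The interleukin receptor genes described here, across leukocyte classes of canine blood and between healthy dogs and dogs with osteosarcoma (OS), are IL2RA, IL2RB, IL2RG, IL7R, IL4R, IL12RB2, IL17RB, IL5RA, IL6R and IL10RA. They were chosen by gene symbol, and each symbol matched 1 of the 20257 gene rows that the 17 count matrices share. Of the 10 genes, IL2RB marked cytotoxic cells, IL12RB2 marked cytotoxic and Th1-like cells, IL7R was highest in the CD4 T cells other than Treg cells and in naïve CD8 T cells, IL17RB marked gd T cells and IL5RA marked eosinophils and basophils. IL4R was spread over nearly all classes. IL2RB was lower on average in cytotoxic CD8A-positive cells of dogs with OS, by a difference that did not pass the test across all genes.

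Interleukin receptors are built from chains that are shared between cytokines. The IL-2 receptor joins an alpha chain (IL2RA), which raises its affinity for IL-2, to a beta chain (IL2RB) and a gamma chain (IL2RG) that signal; IL-15 uses the same beta and gamma chains, and IL-4 and IL-7 use the gamma chain together with IL4R and IL7R. The bound receptor activates Janus kinases (JAKs), which phosphorylate STAT transcription factors. In blood, these receptors are known for the upkeep of naïve and memory T cells by IL-7, of regulatory T cells by IL-2 and of NK cells by IL-15.

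The study used single-cell RNA sequencing to compare circulating leukocytes of 7 clinically healthy dogs and 10 dogs with OS, a bone tumor that arises spontaneously in dogs. Blood of the dogs with OS was drawn before treatment, leukocytes were taken from a density gradient, and 1 library was made per dog with a kit that tags the 3′ ends of transcripts. All dogs were client-owned animals with a genotype listed as wild type. The groups were not matched for breed, and the dogs with OS spanned a wider range of ages, so that disease, breed and other traits of the dogs cannot be told apart.

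After limits on genes, unique molecular identifiers (UMIs, which count transcript molecules) and mitochondrial counts and after removal of doublets, 80407 of 93013 barcodes remained, 1226 to 6632 per dog, with a median of 3567 to 6648 UMIs per cell. Total UMIs in the matrices were 7740230 to 56510134 per dog, and a pair of libraries shared 0 to 22 cell barcodes. The library of healthy dog 7 was rich in neutrophils and that of OS dog 3 held the fewest cells. Cells were clustered without the 10 receptor genes or the other genes of cytokine signaling, and clusters were named from marker genes. A class entered for a dog with at least 25 of its cells, and 20 classes had this in at least 5 dogs. NK cells did so in 4 dogs and memory CD8 T cells in 1. Levels below are CPM, the UMIs of a gene scaled to a fixed total of UMIs of the class, summed over a dog's cells of the class, so within a class fewer expressing cells and less RNA per cell cannot be told apart. They are compared between classes, not between genes. Classes differ in UMIs per cell: in healthy dog 1, 345 neutrophils held 610500 UMIs and 711 monocytes held 7843673. An order of classes by CPM therefore need not be their order by molecules per cell.

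Defining markers of the classes are described here. These genes, or limits on their level, also served to name the clusters, so their values are not an independent check of the names. Effector CD8 T cells had CD3E at 879 ± 117 CPM, CD8A at 200 ± 65 CPM and GZMB at 1316 ± 502 CPM (SD, n = 17 dogs). NK cells had GZMB at 1805 ± 293 CPM and KLRF1 at 164 ± 44 CPM, with CD3E at 1.01 ± 2.02 CPM and CD8A at 0 in all 4 dogs. Treg cells had CTLA4 at 419 ± 99 CPM, while FOXP3, their defining transcription factor, was at only 14.6 ± 3.6 CPM, against 0.747 ± 1.389 CPM in CD4 central memory (TCM) cells (n = 17). Th1-like cells had TBX21 at 4.61 ± 2.69 CPM, against 1.36 ± 3.38 CPM in Th2-like cells, so TBX21 hardly separates the pair and their names rest on other markers. The gd T cells had CD3E at 1242 ± 107 CPM and GATA3 at 722 ± 143 CPM (n = 6); the T cell receptor delta gene was not analysed here. The CD79A row held UMIs in 29.8% to 100% of the cells of every class. It stayed in the B cell list that named clusters and was left out of the B cell marker sum below.

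**Figure D1:**
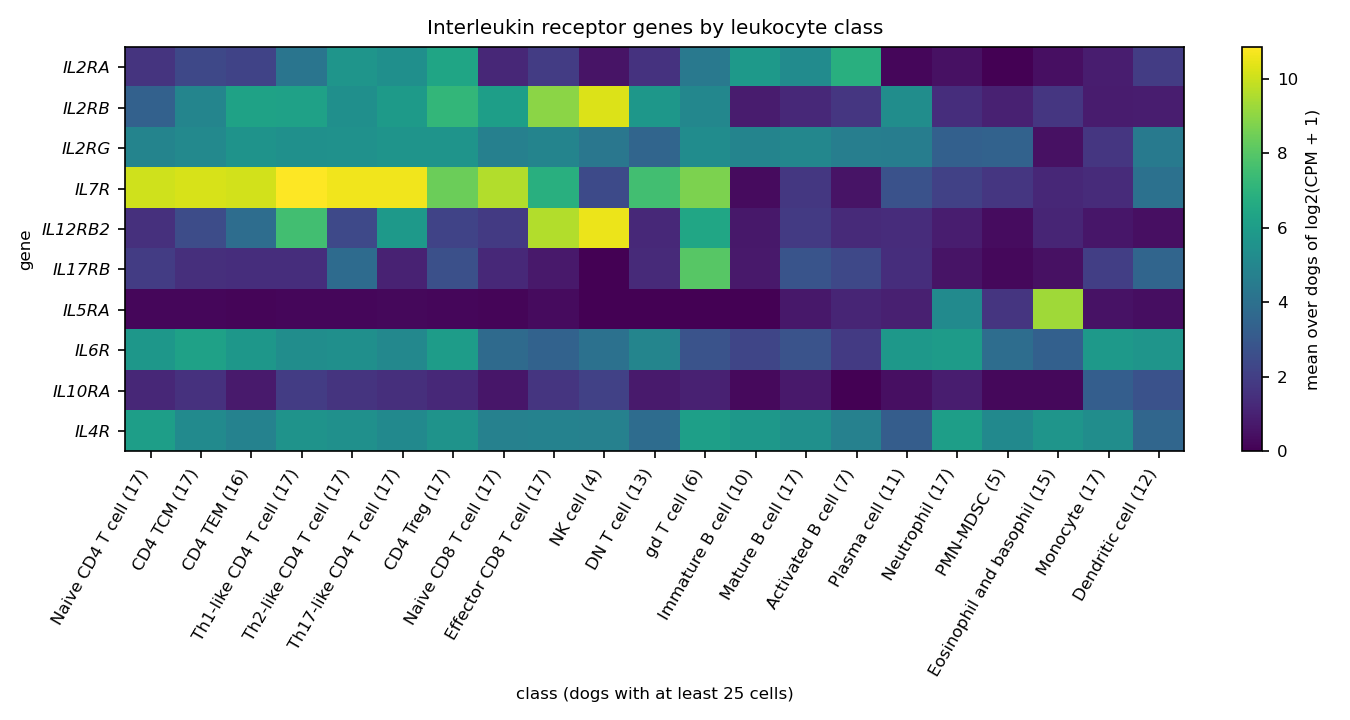
Heat map of the 10 receptor genes (rows) in 21 leukocyte classes (columns, with the number of dogs that had at least 25 cells); the color gives the mean over dogs of log2(CPM + 1). IL7R is high over the CD4 classes other than Treg cells and in naïve CD8 T cells, IL2RB and IL12RB2 in effector CD8 T cells and NK cells, IL17RB in gd T cells and IL5RA in eosinophils and basophils.

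The order of the classes was tested gene by gene, each class against the next lower, with an exact two-sided sign-flip permutation test of the within-dog difference of log2(CPM + 1) over dogs, adjusted by Benjamini-Hochberg over all 190 neighboring pairs of the 20 classes. Of these pairs, 15 differed at an adjusted p under 0.05. The other neighbors were not called, which does not show that their levels were equal: 50 of the 190 pairs were shared by fewer than 9 dogs, as were all pairs with gd T cells or PMN-MDSC, and could not have passed the adjustment beside the other pairs, whatever their own values. Another 10 comparisons, between chosen classes, were tested the same way and adjusted over the 10. The study lists IL2RA, IL2RB, IL7R, IL12RB2, IL17RB and IL5RA among the markers of these classes in the same dogs, so the direction of those comparisons is not independent evidence.

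IL2RA, the alpha chain of the high-affinity IL-2 receptor, was highest in activated B cells and Treg cells. Activated B cells had 122 ± 52 CPM (n = 7), Treg cells 91.8 ± 38.6 CPM (n = 17) and immature B cells 60.6 ± 24.9 CPM (n = 10). Th2-like cells followed at 52.9 ± 19.8 CPM, Th17-like cells at 43.7 ± 14.7 CPM, mature B cells at 42.3 ± 26.6 CPM, gd T cells at 28.7 ± 23.3 CPM and Th1-like cells at 19.1 ± 7.5 CPM. Each of the other 12 classes, effector CD8 T cells and naïve T cells included, had a mean of 5.37 CPM or less. The one step in this order that was called lay between Th1-like and TCM cells, where IL2RA was higher in 17 of 17 dogs, by 1.87 ± 1.00 on the log2 scale (adjusted p = 0.000483, exact permutation test).

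In Treg cells the dogs' IL2RA levels ran from 11.3 to 156 CPM with a median of 82.6 CPM. In all other CD4 T cells they ran from 7.89 to 27.5 CPM with a median of 15.02 CPM. The ranges overlapped through 1 dog, OS dog 4, whose Treg cells were at 11.3 CPM from 11 UMIs in 155 cells. IL2RA was higher in Treg cells in 16 of 17 dogs, by 2.37 ± 0.96 on the log2 scale (adjusted p = 6.1e-05, exact permutation test). A pair of clusters made up the Treg cells, one led by CTLA4, IKZF2 and TNFRSF18 and one by DBX2, GNG3 and ADIRF. Their IL2RA levels were close, 88.4 ± 37.8 and 85.2 ± 36.4 CPM (n = 16 each), while IL2RB was at 104 ± 32 CPM in the first and 193 ± 57 CPM in the second and IL7R at 440 ± 167 and 251 ± 98 CPM; these cluster differences were not tested.

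IL2RB, the beta chain shared by the IL-2 and IL-15 receptors, stood out in cytotoxic lymphocytes. NK cells were at 1032 to 1454 CPM in their 4 dogs (mean 1256 ± 183 CPM) and effector CD8 T cells at 214 to 820 CPM in 17 dogs, with a median of 562 CPM. All 4 NK values lay above all 17 effector values. Treg cells came next with 148 ± 36 CPM, and CD4 effector memory (TEM) cells, Th1-like cells, naïve CD8 T cells and Th17-like cells lay between 64.9 and 79.0 CPM. Double-negative (DN) T cells, which carry neither CD4 nor CD8, had 53.2 ± 11.2 CPM (n = 13) and plasma cells 41.1 ± 12.4 CPM (n = 11). Mature B cells had 1.82 ± 1.74 CPM and monocytes 0.860 ± 0.661 CPM (n = 17 each).

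Of the IL2RB order, 3 steps differed. Effector CD8 T cells were above Treg cells in 17 of 17 dogs, Treg cells above TEM cells in 16 of 16 and TCM cells above naïve CD4 T cells in 17 of 17 (adjusted p of at most 0.000828, exact permutation tests). Cytotoxic CD8 T cells, meaning the effector and memory clusters, ran from 216 to 814 CPM with a median of 553 CPM. Naïve CD4 T cells ran from 5.20 to 20.5 CPM with a median of 8.93 CPM. The ranges did not overlap, and the difference was 5.601 ± 0.737 on the log2 scale, in 17 of 17 dogs (adjusted p = 3.8e-05, exact permutation test).

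IL2RG, the gamma chain that many interleukin receptors share, was present in every T and B cell class of the 20, with class means of 14.3 to 53.7 CPM. Its highest mean was 53.7 ± 33.3 CPM in TEM cells (n = 16), beside 53.5 ± 26.2 CPM in Th17-like cells and 53.1 ± 27.7 CPM in Treg cells. Naïve CD8 T cells had 29.1 ± 17.1 CPM, plasma cells 25.4 ± 10.2 CPM, neutrophils 13.5 ± 12.1 CPM and monocytes 2.65 ± 1.78 CPM. Eosinophils and basophils were lowest, with 4 IL2RG UMIs in 2307 cells and 11 of 15 dogs at 0. Lymphocytes of the same 15 dogs ran from 16.3 to 83.8 CPM with a median of 30.3 CPM, and eosinophils and basophils from 0 to 8.50 CPM with a median of 0. The ranges did not overlap, and the difference was 4.57 ± 1.10 on the log2(CPM + 1) scale, in 15 of 15 dogs (adjusted p = 8.7e-05, exact permutation test). With a pseudocount of 10 CPM in place of 1 the difference was 1.99. The neighboring pair that was called was monocytes over eosinophils and basophils (14 of 15 dogs, adjusted p = 0.0224, exact permutation test). In these dogs eosinophils and basophils held 46940 to 1232265 UMIs per dog, and monocytes 3057776 to 20546946. Values of 0 from low depth and from a lower level cannot be told apart for this pair.

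IL7R, the receptor for the T cell survival factor IL-7, was high in T helper and naïve T cells and near 0 in B cells, NK cells and myeloid cells. Th1-like cells had 1886 ± 366 CPM, Th17-like cells 1620 ± 354 CPM and Th2-like cells 1593 ± 278 CPM (n = 17 each). TCM, TEM and naïve CD4 T cells lay between 1071 and 1186 CPM and naïve CD8 T cells at 806 ± 208 CPM. The gd T cells (453 ± 175 CPM, n = 6), Treg cells (356 ± 125 CPM, n = 17), DN T cells (232 ± 154 CPM, n = 13) and effector CD8 T cells (159 ± 141 CPM, n = 17) followed, and no B cell class exceeded 13.7 CPM. NK cells had 4.76 ± 1.96 CPM, and their thinned share of cells with an IL7R UMI was 1.07% ± 1.43 (n = 4).

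Of the IL7R order, 4 steps differed: Th1-like above Th17-like cells in 17 of 17 dogs, Th2-like above TCM cells in 17 of 17, naïve CD4 above naïve CD8 T cells in 16 of 17 and effector CD8 T cells above dendritic cells in 12 of 12 (adjusted p of at most 0.00773, exact permutation tests). The first of these steps was small, 0.23 ± 0.11 on the log2 scale. CD4 T cells ran from 938 to 2155 CPM with a median of 1204 CPM, and cytotoxic CD8 T cells from 29.0 to 521 CPM with a median of 117 CPM. The ranges did not overlap, although the cytotoxic cells varied widely between dogs. The difference was 3.401 ± 1.169 on the log2 scale, in 17 of 17 dogs (adjusted p = 3.8e-05, exact permutation test).

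IL4R, the chain that binds IL-4 and pairs with IL2RG or IL13RA1, showed no class that stood apart. The gd T cells had 71.3 ± 19.6 CPM (n = 6), neutrophils 70.3 ± 24.6 CPM, naïve CD4 T cells 69.1 ± 19.8 CPM (n = 17 each) and eosinophils and basophils 57.8 ± 35.0 CPM (n = 15). Plasma cells were lowest with 8.78 ± 3.38 CPM (n = 11). None of its 19 neighboring pairs differed at an adjusted p under 0.05. B cells ran from 31.3 to 64.4 CPM with a median of 41.6 CPM, and T and NK cells from 29.3 to 69.3 CPM with a median of 40.7 CPM. The ranges overlapped almost completely, and the difference was 0.035 ± 0.409 on the log2 scale, higher in B cells in 10 of 17 dogs (adjusted p = 0.723, exact permutation test).

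IL12RB2, the signaling chain of the receptor for IL-12, a cytokine that drives Th1 cells and interferon gamma, followed the cytotoxic classes and one T helper class. NK cells were at 1367 to 1647 CPM in 4 dogs and effector CD8 T cells at 395 to 1873 CPM in 17, with a median of 744 CPM. The NK values lay within the upper part of the effector range. Th1-like cells had 210 ± 103 CPM, gd T cells 92.4 ± 39.9 CPM (n = 6), Th17-like cells 70.6 ± 49.2 CPM and TEM cells 20.1 ± 15.7 CPM (n = 16). Effector CD8 T cells were above Th1-like cells in 17 of 17 dogs, Th17-like above TEM cells in 14 of 16 and TEM above Th2-like cells in 14 of 16 (adjusted p of at most 0.0178, exact permutation tests).

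Th1-like cells ran from 87.85 to 499 CPM of IL12RB2 with a median of 201 CPM. Th2-like cells ran from 0 to 28.1 CPM with a median of 5.16 CPM, and 2 dogs were at 0. The ranges did not overlap. IL12RB2 was higher in Th1-like cells in 17 of 17 dogs, by 5.16 ± 1.23 on the log2(CPM + 1) scale (adjusted p = 3.8e-05, exact permutation test).

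IL17RB, the chain that binds IL-25 (also called IL-17E) and IL-17B, had its highest mean in gd T cells, 301 ± 191 CPM. The 6 dogs with enough gd T cells had 154, 203, 209, 209, 367 and 662 CPM. Th2-like cells followed at 15.5 ± 9.0 CPM, dendritic cells at 12.7 ± 7.4 CPM (n = 12), Treg cells at 9.52 ± 11.90 CPM, activated B cells at 6.82 ± 5.57 CPM (n = 7) and mature B cells at 6.66 ± 3.51 CPM. In all other T and NK cells of the same 6 dogs IL17RB was at 1.91 to 7.82 CPM, with a median of 3.17 CPM. The ranges did not overlap, and the difference was 5.89 ± 0.50 on the log2 scale, in 6 of 6 dogs (adjusted p = 0.0347, exact permutation test, where 0.03125 is the smallest unadjusted p that 6 dogs allow). Leaving out any 1 of these dogs, healthy dogs 2, 4 and 5 or OS dogs 5, 6 and 7, gave a difference of 5.78 to 6.05 with 5 dogs, a number at which the test cannot pass. NK cells held 0 IL17RB UMIs, and the CD8+ gd T cells of 2 dogs were at 1.37 and 1.77 CPM. Against Th2-like cells, the next class, which ran from 3.16 to 29.6 CPM, IL17RB was higher in gd T cells in 6 of 6 dogs with no overlap, by 4.20 ± 1.28 on the log2 scale, in a pair that 6 dogs could not bring past the adjustment over 190. The neighboring pair that was called was mature B cells over monocytes (14 of 17 dogs, adjusted p = 0.00773, exact permutation test).

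IL5RA, the alpha chain of the receptor for IL-5, the main growth factor of eosinophils, was seen mostly in granulocytes. Eosinophils and basophils ran from 389 to 1158 CPM with a median of 555 CPM in 15 dogs. Neutrophils of those dogs ran from 9.94 to 112 CPM with a median of 38.8 CPM. The ranges did not overlap, and the difference was 4.17 ± 0.64 on the log2 scale, in 15 of 15 dogs (adjusted p = 8.7e-05, exact permutation test). This pair was also called among the neighbors. Neutrophils were above the next class, PMN-MDSC (polymorphonuclear myeloid-derived suppressor cells), in 5 of 5 dogs, by 3.95 ± 0.62 on the log2 scale, in a pair that 5 dogs could not bring past the adjustment. No other class exceeded 2.77 CPM, and the T cell classes had means of 0.498 CPM or less.

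IL6R, the chain that binds IL-6 and signals through IL6ST, was present in CD4 T cells, neutrophils, plasma cells and monocytes and low in cytotoxic and B cells. TCM cells had 75.81 ± 21.99 CPM, Treg cells 68.1 ± 30.4 CPM, neutrophils 65.5 ± 23.1 CPM and monocytes 56.1 ± 11.0 CPM (n = 17 each), and plasma cells 58.1 ± 23.2 CPM (n = 11). Effector CD8 T cells had 11.4 ± 6.4 CPM, mature B cells 7.32 ± 3.86 CPM and gd T cells 6.36 ± 2.49 CPM. The order fell in small steps, and none of the 19 neighboring pairs differed at an adjusted p under 0.05. Naïve CD4 T cells ran from 26.3 to 75.4 CPM with a median of 52.6 CPM, and cytotoxic CD8 T cells from 1.65 to 28.3 CPM with a median of 11.4 CPM. The ranges met at their ends, and the difference was 2.27 ± 0.89 on the log2 scale, in 17 of 17 dogs (adjusted p = 3.8e-05, exact permutation test).

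IL10RA, the chain that binds the anti-inflammatory cytokine IL-10, had its highest mean in monocytes. These had 8.75 ± 2.48 CPM and dendritic cells 5.93 ± 2.09 CPM (n = 12), and dendritic cells were above Th1-like cells in 11 of 12 dogs (adjusted p = 0.0433, exact permutation test). T and NK cells ran from 1.04 to 9.81 CPM with a median of 1.77 CPM, and B cells from 0 to 2.03 CPM with a median of 0.846 CPM and 7 dogs at 0. The ranges overlapped. T and NK cells were higher in 15 of 17 dogs, by 0.94 ± 0.91 on the log2(CPM + 1) scale (adjusted p = 0.00040, exact permutation test), but the B cells held 23 IL10RA UMIs in all, and with a pseudocount of 10 CPM the difference was 0.20.

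**Figure D2:**
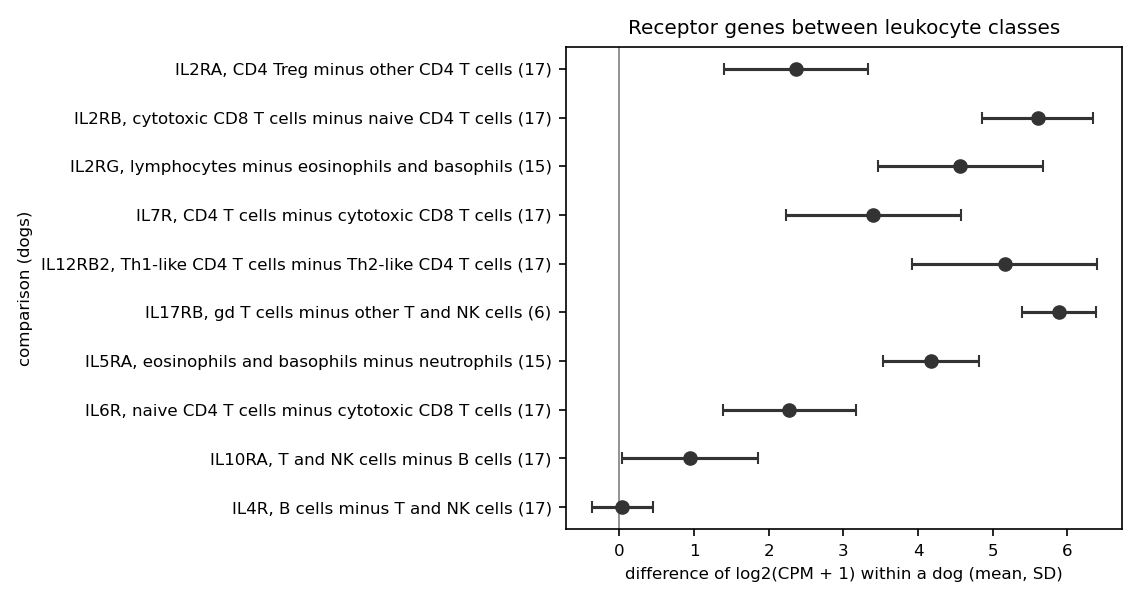
Within-dog difference of log2(CPM + 1) for the 10 comparisons between classes; points are means over dogs, bars are SD, and the number of dogs is in parentheses. At this pseudocount of 1 CPM the mean differences for IL2RB, IL12RB2 and IL17RB are above 5, while that for IL4R is centered near 0.

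None of the 10 class differences was found to differ between healthy dogs and dogs with OS (adjusted p of at least 0.985, exact permutation of the group labels). The IL17RB test, with 3 healthy dogs and 3 dogs with OS, could not have passed at 0.05 whatever the values. The IL2RB difference of cytotoxic CD8 over naïve CD4 T cells was 5.94 ± 0.60 in 7 healthy dogs and 5.37 ± 0.76 in 10 dogs with OS, the smallest unadjusted p of the 10 (0.120, exact permutation test).

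The genes whose class means were most like those of each receptor were taken by Pearson correlation of mean log2(CPM + 1) over the 20 classes, among 9879 genes. The classes share libraries and lineages, and the values are a description. IL7R was followed most closely by BCL11B (r = 0.962), CAMK4 (0.962) and GRAP2 (0.958), IL2RB by TRIB2 (0.929), VCPKMT (0.911) and SIDT1 (0.909), and IL12RB2 by KLRK1 (0.920), TTYH1 (0.890) and FAT4 (0.886). IL17RB was followed by CHDH (0.891), PARD3B (0.846) and ETNK2 (0.838), IL5RA by ENSCAFG00000043285 (0.983), DAPK2 (0.965) and SOAT2 (0.961), and IL2RA by EHD3 (0.857), ZNF831 (0.836) and ZNF292 (0.834). For IL2RG they were JAGN1 (0.918), LRP8 (0.916) and SMARCD1 (0.912), for IL10RA ABCA3 (0.927), TNS1 (0.877) and ENSCAFG00000023144 (0.872), for IL6R NEU1 (0.787), AP2A1 (0.777) and MGLL (0.741), and for IL4R OSER1 (0.774), CYTH1 (0.770) and SLC20A2 (0.722). BCL11B, KLRK1, PARD3B, DAPK2 and ZNF831 were among the markers used to name classes. CHDH lies next to IL17RB in the dog assembly UU_Cfam_GSD_1.0, where ACTR8 overlaps IL17RB. In the same assembly LOC119873634 overlaps IL2RB, LOC111091660 overlaps IL2RA, LOC102154658 overlaps IL12RB2 and SMIM35 overlaps IL10RA. The counts were made on another assembly, CanFam3.1, and strand was not considered. Whether reads of these 5 receptor genes and their neighbors were fully separated was not tested.

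Partner chains and downstream factors were described from a list of cytokine receptor chains, kinases, STATs, inhibitors and ligands, of which 67 genes besides the members were in the matrices. The ones named here were chosen after their values were seen. IL12RB1, the other chain of the IL-12 receptor, was highest in effector CD8 T cells (34.9 ± 8.9 CPM), as was STAT4, which IL-12 activates (1029 ± 379 CPM, n = 17 each). CSF2RB, which pairs with IL5RA, was highest in eosinophils and basophils (521 ± 160 CPM, n = 15), and IL6ST, which pairs with IL6R, in TCM cells (73.74 ± 16.99 CPM, n = 17). CRLF2, which pairs with IL7R to form the receptor of the epithelial cytokine TSLP, was at 469 ± 118 CPM in gd T cells (n = 6), against 33.0 CPM in Th2-like cells, the next class. JAK3, the kinase bound to IL2RG, was at 50.1 ± 13.6 CPM in Treg cells (n = 17) and at the same rounded level in gd T cells. IL15RA, the alpha chain for IL-15, was at 56.3 ± 8.3 CPM in monocytes (n = 17) and as high in dendritic cells.

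The 3 chains of the IL-2 receptor were also counted in the same cells, after each cell was thinned to 1500 UMIs. In 2009 Treg cells, 11.1% had an IL2RA UMI, 16.9% an IL2RB UMI and 7.43% an IL2RG UMI, as means over 17 dogs. Both IL2RA and IL2RB were seen in 1.71% ± 1.47 of these cells, against 1.90% as the product of both shares. In 10267 effector CD8 T cells, IL2RB was seen in 49.6% and IL2RA in 0.446%. Monocytes, which had little of each chain, gave 0.165% for IL2RA, 0.0530% for IL2RB and 0.383% for IL2RG. A cell without a UMI at this depth is not shown to lack the receptor.

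The study compared dogs with OS with healthy dogs, and IL2RB in cytotoxic CD8A-positive cells was taken as the first readout. These are effector and memory CD8 T cells with at least 1 CD8A UMI, 2394 cells from the healthy group and 3402 from the OS group. Only 32 and 75 of them were named memory cells, so the readout is nearly that of the effector clusters. PI3, on the memory marker list, was among the leading genes of some effector clusters. The study describes IL2RB in effector CD8 T cells of the same dogs by disease, so neither the direction nor the tests of IL2RB here are independent evidence. IL2RB ran from 482 to 794 CPM in 7 healthy dogs, with a median of 635 CPM, and from 199 to 734 CPM in 10 dogs with OS, with a median of 421 CPM. The groups overlapped: the healthy values filled the upper part of the range, while 6 of the dogs with OS lay below the lowest healthy dog. The means were 644 ± 124 and 435 ± 171 CPM (TMM-normalized), and the log2 fold change of OS over healthy was -0.57 ± 0.21 (SE). In edgeR's quasi-likelihood test the unadjusted p was 0.0130 and the Benjamini-Hochberg adjusted p over 12164 genes was 0.935, so the difference was not called. Of those genes 0% were called at an adjusted p under 0.01 and a log2 fold change beyond 0.58 (0 genes, also with DESeq2), and 4.73% were at an unadjusted p under 0.05 (575 genes).

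The share of these cells with an IL2RB UMI, after thinning each cell to 1500 UMIs, was 46.5% to 66.7% in healthy dogs with a median of 57.0%, and 25% to 63.6% in dogs with OS with a median of 40.2%. The ranges overlapped through 3 dogs with OS. The means were 57.5% ± 7.3 and 42.0% ± 11.8, a difference of -15.5 percentage points (p = 0.00967, exact two-sided Wilcoxon rank-sum test, n = 7 and 10). Without thinning the means were 88.4% and 75.0% (p = 0.0431, exact Wilcoxon test), and at 1000 UMIs a cell the difference was -9.03 points and missed the threshold (p = 0.109, exact Wilcoxon test). In classes with little or no IL2RB the thinned share was 0.322% and 0.203% of mature B cells (median 3903 UMIs a cell) and 0.0725% and 0.0393% of monocytes in healthy dogs and dogs with OS. In naïve CD4 T cells it was 1.66% and 1.38% (median 5550 UMIs a cell). Cytotoxic cells had a median of 4672 UMIs.

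**Figure D3:**
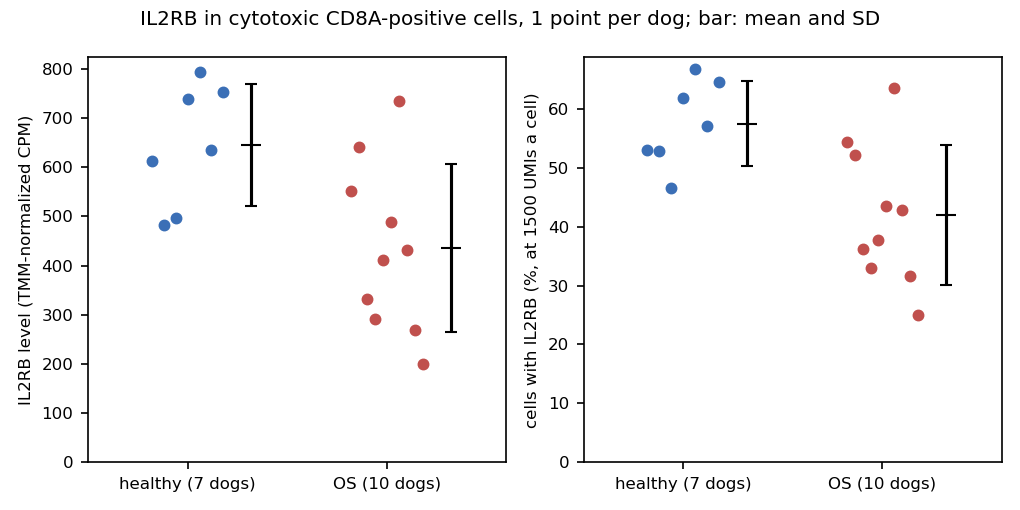
IL2RB in cytotoxic CD8A-positive cells of 7 healthy dogs and 10 dogs with OS: TMM-normalized CPM (left) and the percentage of cells with an IL2RB UMI after thinning to 1500 UMIs a cell (right), 1 point per dog, with mean and SD beside the points. The means are 644 and 435 CPM and 57.5% and 42.0%, and the groups overlap in both panels.

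The lower mean of IL2RB was seen in each of the 7 effector clusters. These clusters split the cells of the same dogs, so they are not 7 independent observations, and the differences within them were not tested. In the cluster led by CCL5, GZMB and KLRB1, IL2RB was 453 ± 74 CPM in 6 healthy dogs and 349 ± 197 CPM in 9 dogs with OS. In that led by TRPM3 and KLRA1, it was 688 ± 108 and 489 ± 251 CPM (n = 7 and 9), and in that led by PI3, CCL5, GZMA and ASIC2 779 ± 130 and 579 ± 229 CPM (n = 7 and 9). The cluster led by CCL5, GZMB and KLRB1, which was lower in IL2RB than the others named here, made up 15.7% ± 10.7 of the cytotoxic CD8A-positive cells in healthy dogs and 22.8% ± 11.2 in dogs with OS; its part in the result was not tested.

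Depth and markers of other cells in the cytotoxic cells were measured beside this comparison. The cells' median UMI count was 3825 to 6782 per healthy dog (median 4766) and 3255 to 6913 per dog with OS (median 4518). The summed level of 7 B cell markers in the cytotoxic cells was 20.3 to 87.5 CPM in healthy dogs and 5.87 to 38.0 CPM in dogs with OS, with 2 of the 7 genes higher on average in OS and none at 0 throughout. The sum of 8 neutrophil markers was 727 to 2762 CPM in healthy dogs and 1471 to 3365 CPM in dogs with OS, with 6 of 8 higher in OS and none at 0 throughout. Monocyte markers summed to 70.6 to 109 CPM and 43.8 to 216 CPM in the healthy and OS groups (8 of 10 genes higher in OS), CD4 T cell markers to 226 to 591 CPM and 201 to 840 CPM (6 of 7 higher), and platelet markers to 1.99 to 48.04 CPM and 5.47 to 95.1 CPM (4 of 5 higher). Erythrocyte markers summed to 0 to 0.641 CPM and 0 to 11.5 CPM (4 of 6 higher, SLC4A1 at 0). NK cell markers had medians of 739.5 and 743.3 CPM (3 of 8 higher). The NK list shares CD96 with the effector and FASLG with the memory CD8 list, so this sum includes markers of the cytotoxic cells themselves. The part of these values and of depth in the IL2RB result was not tested.

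The 10 genes were then compared between OS and healthy dogs in 9 populations: all leukocytes, CD8/NK cells, cytotoxic CD8A-positive cells, CD4 T cells, Treg cells, B cells, monocytes, neutrophils, and eosinophils and basophils. Of 84 tests that had enough counts, 0 were called by edgeR's quasi-likelihood test or by DESeq2, and the lowest adjusted p was 0.646. With edgeR the background was a single called gene in eosinophils and basophils (0.0116% of 8657 genes) and 0% in each of the other 8 populations; DESeq2 called 3 genes in all leukocytes, 2 in monocytes, 2 in eosinophils and basophils and 0 in the other 6. At an unadjusted p under 0.05 there were 10 of the 84, against a background, as a share of all genes tested, of 5.69% in all leukocytes, 3.69% in CD8/NK cells, 4.73% in cytotoxic CD8A-positive cells, 3.7% in CD4 T cells, 3.95% in Treg cells, 4.94% in B cells, 5.88% in monocytes, 4.58% in neutrophils and 7.29% in eosinophils and basophils. The 10 were spread as 0, 2, 2, 1, 2, 0, 1, 1 and 1 of the 10, 10, 9, 10, 9, 10, 10, 10 and 6 members tested in these populations, in that order. They include IL2RG in CD8/NK, cytotoxic, CD4 T and Treg cells and IL2RB in CD8/NK and cytotoxic cells. These populations overlap in cells and come from the same dogs, so the 10 are not independent observations. None of the 84 had groups that did not overlap, against 0.0184% of all genes in all leukocytes, 0.0222% in CD8/NK cells, 0.00822% in cytotoxic CD8A-positive cells, 0.008% in B cells, 0.0218% in monocytes, 0.0462% in eosinophils and basophils and 0% in the rest. The median log2 fold change of the members tested was -0.089 in all leukocytes, -0.062 in CD8/NK cells, -0.12 in cytotoxic CD8A-positive cells, 0.096 in CD4 T cells, 0.12 in Treg cells, 0.13 in B cells, -0.16 in monocytes, 0.20 in neutrophils and 0.022 in eosinophils and basophils. That of all genes tested lay between -0.0122 in B cells and 0.0214 in monocytes.

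The log2 fold change of IL2RG, OS over healthy, was positive in all 8 populations in which it was tested, 0.42 to 0.76. It was not tested in eosinophils and basophils. IL6R was negative in the same 8 populations, -0.37 to -0.084, and positive in eosinophils and basophils (0.12 ± 0.64, SE). How many of all genes kept 1 sign was not counted. In Treg cells IL2RG ran from 24.7 to 69.1 CPM in healthy dogs with a median of 33.6 CPM. In dogs with OS it ran from 27.3 to 122 CPM with a median of 54.2 CPM. The groups overlapped over most of the healthy range. The log2 fold change there was 0.76 ± 0.26 (SE), with an unadjusted p of 0.00568 and an adjusted p of 0.999 in edgeR's test. The populations come from the same dogs and overlap in cells, so the 8 directions are not 8 independent observations.

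**Figure D4:**
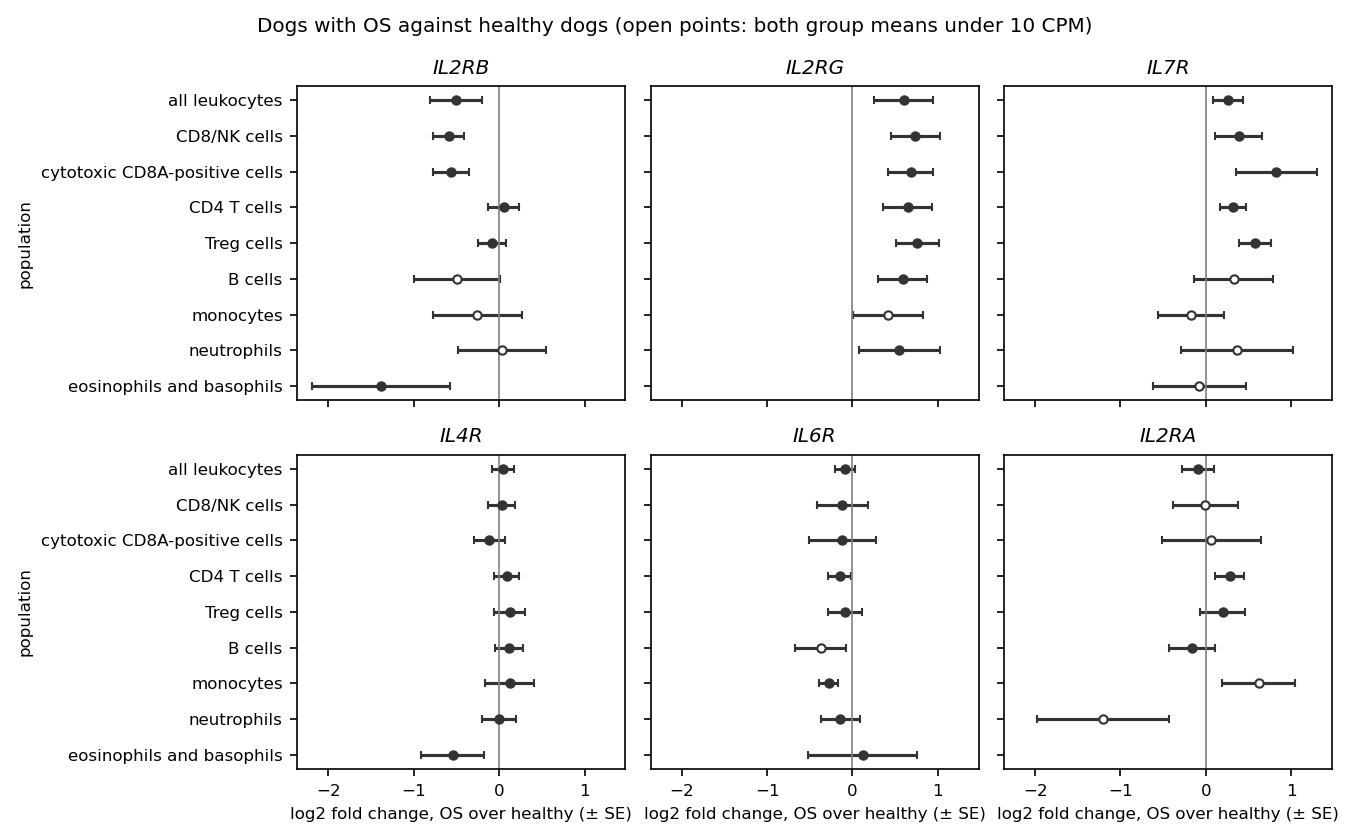
Log2 fold change of OS over healthy dogs (points, with SE as bars) for 6 receptor genes in 9 populations; open points have both group means under 10 CPM, and a gene without enough counts has no point. IL2RG lies above 0 in all 8 populations shown, and IL2RB below 0 in CD8/NK and cytotoxic cells and near 0 in CD4 T cells.

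Within dogs, IL2RG levels of different populations moved together. IL2RG in CD4 T cells ran from 18.3 to 56.9 CPM in healthy dogs and from 19.0 to 93.6 CPM in dogs with OS, with OS dogs 1 and 2 at 91.4 and 93.6 CPM. Over the 17 dogs its log2 level in CD4 T cells correlated with that in CD8/NK cells with r = 0.956 and rho = 0.931 (permutation p = 1e-05 for both, the smallest that 100000 resamples can give; adjusted p = 9e-05 over 9 relations). Within groups r was 0.967 in healthy dogs and 0.941 in dogs with OS, and without the 2 dogs farthest from the median it was 0.913. With B cells r was 0.832 and rho 0.686 (adjusted permutation p = 0.00027 and 0.00951; 0.654 and 0.867 within groups, 0.645 without the 2 farthest dogs). The populations of a dog share a library, and whether the dog or the library sets the level cannot be told apart.

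Of the other 7 relations, 1 more passed: IL4R in CD4 T cells against CD8/NK cells, with r = 0.623 and rho = 0.799 (adjusted permutation p = 0.0237 and 0.001035). For IL2RB the same relation gave r = 0.317 and rho = 0.404 (adjusted permutation p = 0.323 and 0.246), and for IL7R r = 0.143 and rho = 0.169 (adjusted permutation p = 0.651 and 0.638).

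**Figure D5:**
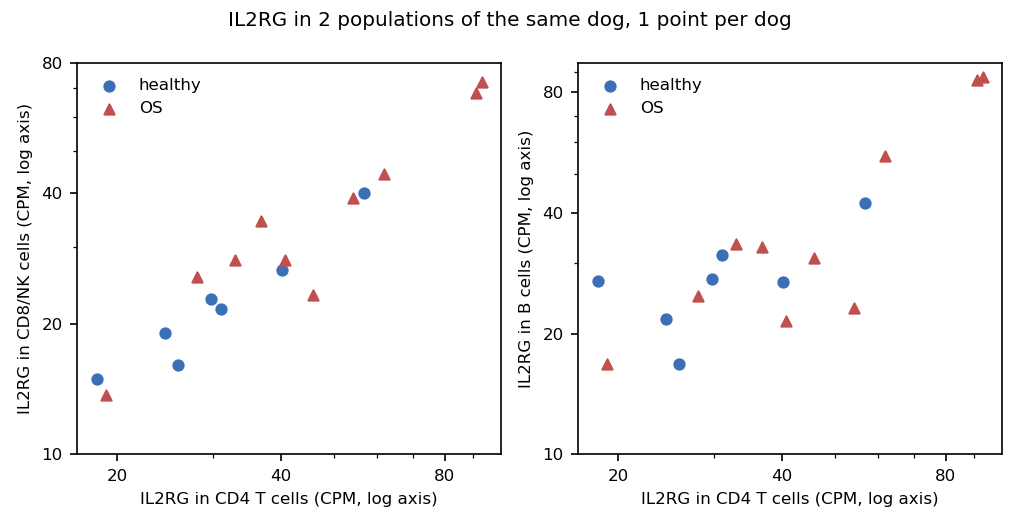
IL2RG in CD8/NK cells (left) and in B cells (right) against IL2RG in CD4 T cells, as TMM-normalized CPM on log axes, 1 point per dog (7 healthy, 10 with OS). The points of both groups lie along one rising band in the left panel (r = 0.956) and scatter more in the right panel (r = 0.832).

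Among the other receptor genes, those at an unadjusted p under 0.05 with a mean of at least 10 CPM were IL7R in Treg cells, IL6R in monocytes and IL5RA in eosinophils and basophils. IL7R in Treg cells ran from 190 to 400 CPM in healthy dogs with a median of 298 CPM, and from 238 to 681 CPM in dogs with OS with a median of 394 CPM. The log2 fold change was 0.58 ± 0.19 (SE; edgeR's unadjusted p = 0.00424, adjusted p = 0.999). IL6R in monocytes ran from 47.8 to 73.7 CPM in healthy dogs with a median of 62.0 CPM, and from 41.2 to 63.9 CPM in dogs with OS with a median of 51.4 CPM. The groups overlapped in both cases, and the IL6R fold change was -0.28 ± 0.11 (SE; edgeR's unadjusted p = 0.0177, adjusted p = 0.784).

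IL5RA in eosinophils and basophils ran from 402 to 814 CPM in 7 healthy dogs with a median of 535 CPM, and from 441 to 1228 CPM in 8 dogs with OS with a median of 818 CPM. Again the groups overlapped (log2 fold change 0.49 ± 0.22, SE; edgeR's unadjusted p = 0.0337, adjusted p = 0.646). IL2RA in Treg cells was at 82.2 ± 13.1 CPM in healthy dogs and 96.1 ± 45.1 CPM in the OS group, with a fold change of 0.20 ± 0.27 (log2, SE), and IL4R was at 45.0 ± 6.81 and 49.3 ± 15.3 CPM in the same cells, a difference of 0.12 ± 0.19 (log2, SE). Neither was called (edgeR's adjusted p = 0.999 for both).

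Of the other genes of the pathway list, 43 were tested in cytotoxic CD8A-positive cells. None was called, 3 of the 43 were at an unadjusted p under 0.05 in edgeR's test, beside 4.73% of all genes, and their median log2 fold change was 0.0189, against 0.00688 over all 12164 genes. The 2 highest log2 fold changes among the 25 at a mean of at least 10 CPM were those of STAT5A, a STAT downstream of IL2RB, with 0.41 ± 0.24 (SE), and of TYK2, a kinase bound to IL12RB1, with 0.40 ± 0.19 (SE). The 2 lowest were those of the IL-18 receptor chains IL18RAP, with -0.58 ± 0.21 (SE; 89.3 ± 25.5 against 60.6 ± 20.6 CPM), and IL18R1, with -0.54 ± 0.28 (SE). In the other 8 populations no pathway gene was called. At an unadjusted p under 0.05 there were 5 of 62 pathway genes in all leukocytes (5.69% of all genes), 2 of 52 in CD8/NK cells (3.69%), 2 of 56 in CD4 T cells (3.7%), 2 of 47 in Treg cells (3.95%), 0 of 46 in B cells (4.94%), 4 of 49 in monocytes (5.88%), 4 of 33 in neutrophils (4.58%) and 2 of 33 in eosinophils and basophils (7.29%).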

How the data were processed

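Single-cell RNA sequencing was performed by the authors on leukocytes of 7 healthy dogs and 10 dogs with OS, and the deposited values are raw UMI counts per gene and cell, made with Cell Ranger 7.0.0 and CanFam3.1 per the labels; no normalization was applied before deposit. Whether intronic reads are in these counts is not given in the sources used here. Reads across intronic or overlapping genes could raise a gene's count.

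Barcodes with 200 to 4500 genes, 500 to 20000 UMIs and at most 10% mitochondrial UMIs were kept, which left 84345, and 3938 doublets were removed at an assumed rate of 0.8% per 1000 cells. Cells were clustered (Python 3.11.15, scanpy 1.11.5, numpy 2.4.6, leidenalg 0.10.2) on 2000 variable genes and 30 principal components, corrected across dogs with soft clustering after the Harmony model, with 20 neighbors, resolution 1 and seed 1. Class names were rebuilt from marker lists, with thresholds set after clusters were seen, so values can differ from those under the authors' names; 10912 cells stayed unnamed and 3521 platelet or erythrocyte cells were removed. Members and lists were chosen with earlier results of these data known.

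UMIs were summed per dog and class (at least 25 cells). Class levels are plain CPM. Groups were compared with edgeR 4.0.16 (quasi-likelihood test, TMM, R 4.3.3) over genes with at least 10 counts, Benjamini-Hochberg adjusted over all genes tested, at an adjusted p under 0.01 and an absolute log2 fold change over 0.58. DESeq2 1.42.0 was an alternative. Classes were compared by exact permutation tests with a pseudocount of 1 CPM, and shares by exact Wilcoxon tests (scipy 1.17.1), both at 0.05. On simulated data for cytotoxic CD8A-positive cells, 198 of 200 4-fold changes among 11953 genes were recovered with 1 false call. The changed genes were at a mean of at least 10 CPM. Recovery of smaller changes, such as those reported here, was not simulated. The text names all members, the 3 genes most like each, and the 2 highest and 2 lowest pathway genes at 10 CPM or more. Partner chains and downstream factors described by class were chosen outside this rule, after their values were seen. Alternatives covered doublets, clustering, filters, scaling, pseudocount, thinning, age and single dogs. Each dog was 1 replicate.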

Additional observations from a re-analysis of the deposited data

Results flagged for a closer look

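Of 44 groups of 4 to 10 dogs that were examined for a dog far from the others, 3 held one, where chance gives about 1 in 20. IL2RG in Treg cells was at 69.1 CPM in healthy dog 1, where the next healthy dog was at 39.5 CPM and the median at 33.6 CPM. IL7R in effector CD8 T cells was at 586 CPM in OS dog 5, where the next dog with OS was at 306 CPM and the median at 119 CPM. IL4R in mature B cells was at 62.8 CPM in healthy dog 7, the neutrophil-rich library, where the next healthy dog was at 43.5 CPM and the median at 41.6 CPM.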

How the results depend on the processing

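The differences between classes for IL2RA, IL2RB, IL2RG, IL7R, IL12RB2, IL5RA, IL6R and IL10RA kept their direction and stayed past the threshold under all 8 alternatives and with each dog left out. A pseudocount of 10 CPM lowered IL2RG to 1.99, IL10RA to 0.20, IL12RB2 to 3.67, IL17RB to 4.33 and IL2RB to 4.69. The IL17RB difference missed the threshold without correction across dogs (5.78, p = 0.0625), with doublets kept (5.75, p = 0.0625), in healthy dogs only (5.87, p = 0.25) and in dogs with OS only (5.92, p = 0.25; exact permutation tests), where fewer than 6 dogs remained, and it ranged from 5.78 to 6.05 with 1 dog left out. The IL4R difference turned to -0.0093 without OS dog 8 and ranged from -0.0093 to 0.083 with 1 dog left out; the cause was not tested. The share of cells with an IL2RB UMI differed by -9.03 points at 1000 UMIs (p = 0.109, exact test), and by -17.9 to -13.6 points with 1 dog left out. The IL2RB log2 fold change in cytotoxic cells was -0.57 to -0.43 over 11 alternatives (edgeR or DESeq2 adjusted p 0.844 to 1) and -0.68 to -0.48 with 1 dog left out, and the count of genes called stayed at 0. With the replicate number as a block it was -0.43 (unadjusted p = 0.0497, edgeR), and 0 genes were called; the numbers are only shared, with correlations of -0.081 to 0.126 over 7 pairs and 1 of 7 dogs closest to its own number. A gate without clusters left no dog with 25 cells because CD79A UMIs occur in every class, so the same gate without CD79A was used, chosen after seeing the data; memory CD8 cells alone also gave no value. Most IL10RA values rest on few UMIs, and whether through depth or a low level was not tested. Classes seen in few dogs are those in which few dogs had 25 cells.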

Other observations

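A cluster of 94 cells that stayed unnamed carried several of the receptor genes together. It was led by PRLR, MUL1, KCNIP4 and DIAPH3, held cells of all 17 dogs (46 cells in the healthy and 48 in the OS group) with at most 17 from 1 dog, and had little CD3E (11.5 CPM), 2 CD4 UMIs and no CD8A UMI. Pooled over its cells, IL7R was at 1031 CPM, IL17RB at 507 CPM and IL2RA at 245 CPM, beside GATA3, a transcription factor of type 2 lymphocytes, at 566 CPM, CRLF2 at 381 CPM and IL1RL1, the IL-33 receptor, at 236 CPM. An IL7R UMI was present in 97.9% of its cells and an IL17RB UMI in 77.7%. No dog had 25 of these cells, so the values have no spread over dogs and no test. The mast cell and basophil gene MS4A2 was at 144 CPM, in 18.1% of the cells.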
